A study of Drosophila melanogaster with 15 samples.

Results

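The genes described here, in Drosophila melanogaster larvae, are Oat, CG14687, miple1, Dred, CG6912, Irc and lncRNA:CR32027. They were chosen by their array levels, which stood apart from wild type in the same direction and strongly in 2 strains, DSas-4 mutants and larvae overexpressing Sak, while DSas-6 mutants stayed near wild type or moved otherwise. They are 7 of 11982 genes with a probe set of their own on the array, and all 7 are among the 6973 genes that passed the filter on dim signals. The levels in the 5 groups chose the genes, so their differences from the wild types and between the 3 strains are given as a description, without a test. Each gene was read by 1 probe set.

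RNA came from the brains and discs of wandering 3rd instar larvae, raised at 25 °C, with 10 larvae pooled per sample, and 500 ng of it was labelled for each of 15 single-colour Affymetrix arrays, 3 per group. The groups are a DSas-4 mutant and a DSas-6 mutant, both labelled as having no centrioles, a strain overexpressing Sak (SakOE here) with too many centrosomes, and the wild types w67, whose genotype is labelled white wild type, and OregonR. No allele of the mutants and no promoter or driver for Sak is given in the sources used here. The labels call the 3 arrays of a group biological replicates. Levels are the authors' deposited values on the log2 scale, so that 1 unit is a doubling, and errors are SD over 3 arrays.

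The centrosome organises microtubules around a pair of centrioles. Sas-4 builds the centriole wall, Sas-6 the cartwheel from which a new centriole grows, and the kinase SAK, the fly Plk4, starts duplication. Oat encodes ornithine aminotransferase, a mitochondrial enzyme that links the breakdown of arginine to proline and glutamate. The protein of miple1 is a secreted heparin-binding growth factor of the midkine and pleiotrophin family, expressed in the nervous system. Irc encodes the immune-regulated catalase, a haem peroxidase known for removing reactive oxygen in the adult gut. Dred is listed in the RefSeq gene table with the older name P150B. CG14687 and CG6912 carry only their annotation numbers, and lncRNA:CR32027 is a long non-coding RNA.

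The lowest correlation between replicates was 0.987. Sas-4 stood at 4.84 ± 0.23 in DSas-4 arrays and at 7.62 ± 0.17 in w67, and Sas-6 at 3.21 ± 0.09 in DSas-6 arrays against 7.73 ± 0.09, as the labels say. The probe set of SAK does not bear out the overexpression label, reading 7.53 ± 0.04 in SakOE, 7.84 ± 0.11 in w67 and 7.51 ± 0.11 in OregonR; whether it lies in the transgene is not known here. SakOE below therefore means the arrays labelled so. Neuron, glia and neuroblast markers (10 of 10 measured) and disc markers (8 of 8) reached a level of 4 in at least 3 arrays, whereas 0 of 8 salivary gland markers did. Haemocyte markers averaged 7.07 to 8.21 over the DSas-4 arrays, highest in replicate 1, and 5.85 to 6.84 over the arrays other than DSas-4. Gut markers averaged 4.77 in OregonR replicate 3 and at most 3.17 elsewhere. The lowest value of an array was 2.174 in both DSas-4 and w67 but 2.178 in DSas-6, 2.181 in SakOE and 2.18 in OregonR. The values may therefore come from several normalization runs. Outside DSas-4 against w67, a normalization run and a group cannot be told apart.

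Oat stood at 8.44, 7.98 and 7.81 in the DSas-4 arrays and at 8.15, 8.11 and 8.11 in the SakOE arrays. It was 5.82, 6.0 and 5.71 in w67, 5.76, 4.62 and 5.29 in OregonR, and 5.39, 5.67 and 5.68 in DSas-6. The 6 arrays of the shifted strains lay above the other 9 with a gap of 1.81, and the 3 SakOE arrays differed among themselves by only 0.04. The DSas-4 mean exceeded w67 by 2.23 (4.69-fold) and OregonR by 2.85 (7.22-fold), and the SakOE mean by 2.28 (4.85-fold) and 2.90 (7.46-fold). Ornithine aminotransferase transcript was thus at nearly one level in both strains, 8.08 ± 0.32 and 8.12 ± 0.02.

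Among Oat, CG14687 and miple1, the higher genes with a measured wild-type level, CG14687, a gene of unknown function, had the largest excess in SakOE. This goes by the smaller of the differences from the wild types. Its SakOE arrays read 10.66, 11.12 and 11.11. The DSas-4 arrays read 10.68, 9.76 and 10.17. The wild-type arrays read 8.29, 7.97 and 7.99 in w67 and 7.98, 7.76 and 7.76 in OregonR, and those of DSas-6 read 7.80, 7.99 and 7.72. Here too the 6 arrays lay above the other 9, by at least 1.46. The difference was 2.12 from w67 and 2.37 from OregonR in DSas-4, and 2.88 (7.37-fold) and 3.13 (8.74-fold) in SakOE. Without DSas-4 replicate 1, the highest of its group, the smaller of the DSas-4 differences was 1.88.

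The growth factor gene miple1 was already high in wild type, at 9.50, 9.43 and 9.34 in w67 and 9.78, 9.83 and 9.81 in OregonR. It reached 11.73, 11.67 and 11.44 in DSas-4 and 11.26, 10.89 and 11.13 in SakOE. The DSas-6 arrays, at 8.95, 9.24 and 8.96, all lay below the 6 wild-type arrays, on the opposite side from DSas-4 and SakOE. DSas-4 exceeded w67 by 2.19 and OregonR by 1.81, SakOE exceeded them by 1.67 and 1.29, and DSas-6 differed from them by -0.37 and -0.76.

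Dred was under the filter level of 4 on all 9 arrays of DSas-6 and the wild types, so the array gives no measured level there. The DSas-4 arrays read 6.06, 5.95 and 5.96 and the SakOE arrays 5.74, 5.82 and 5.75, which set against a level of 4 is at least 3.97-fold and at least 3.41-fold higher. Below the filter level OregonR read 3.51, 3.48 and 3.35, w67 2.62, 3.04 and 2.88, and DSas-6 2.26 on each of its arrays, close to the lowest value an array of that group can show. The probe set is of a kind that may also match transcripts of other genes, so the Dred values are uncertain in that respect.

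**Figure D1:**
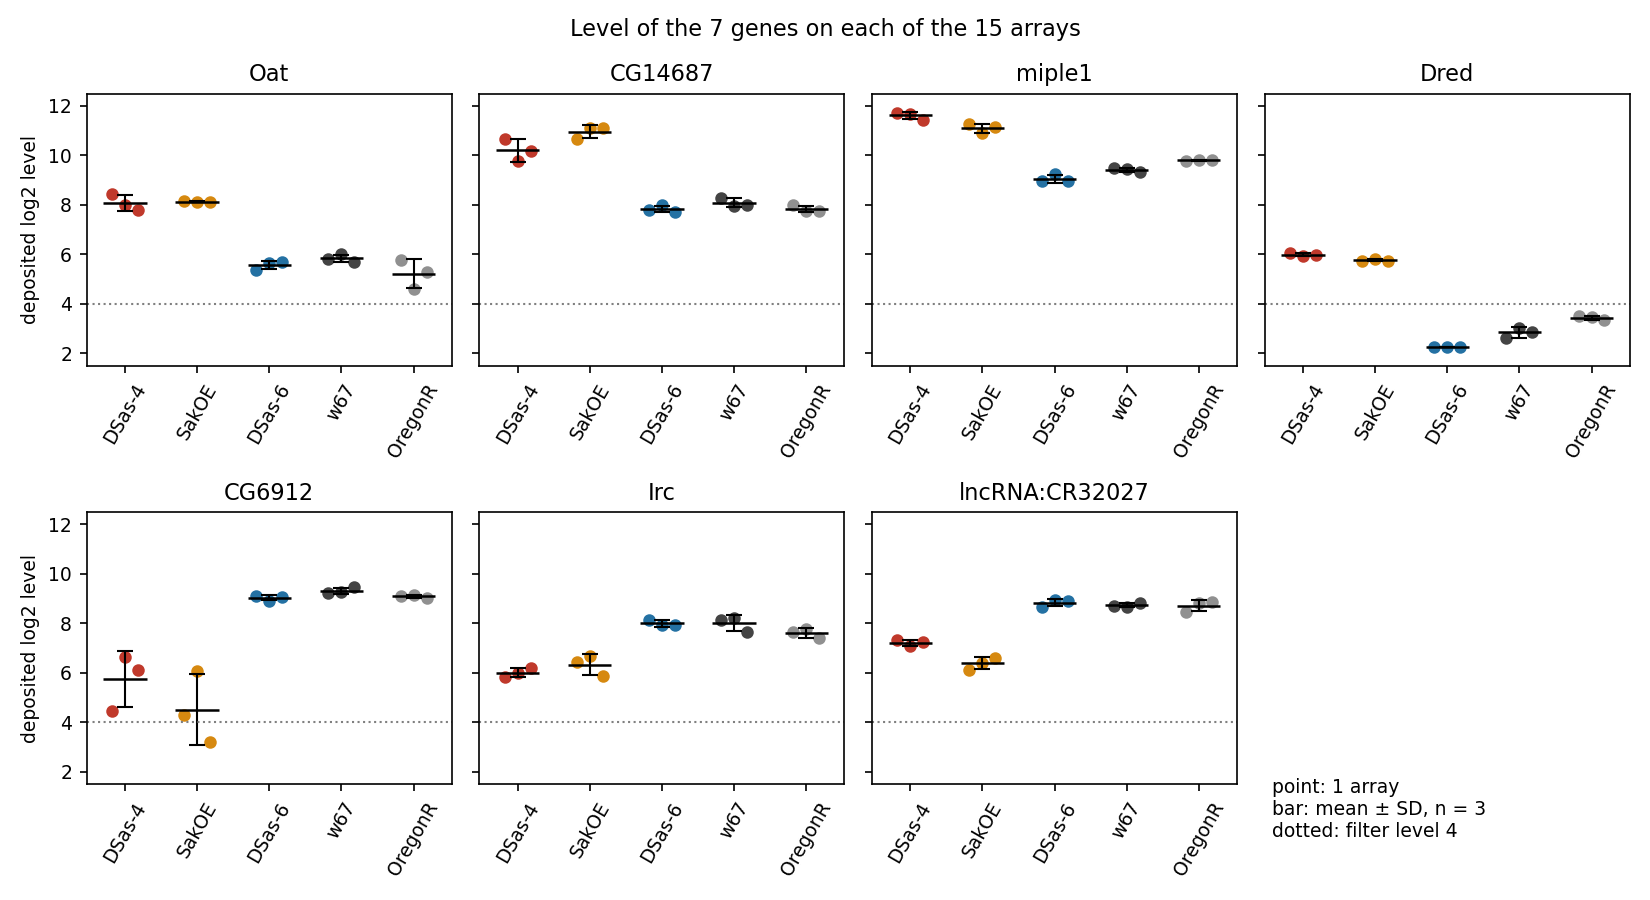
Each panel plots 1 gene, with the deposited log2 level on the vertical axis and the 5 groups on the horizontal axis; points are arrays, bars the mean ± SD (n = 3) and the dotted line the filter level of 4. In every panel the 6 DSas-4 and SakOE arrays lie apart from the other 9, by 0.70 (Irc) to 2.25 (CG6912), and CG6912 scatters most within those 2 groups.

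Among the genes with lower levels, CG6912 had the largest difference. It read 9.21, 9.25 and 9.45 in w67, 9.10, 9.16 and 9.04 in OregonR and 9.09, 8.91 and 9.08 in DSas-6. In DSas-4 it read 4.48, 6.66 and 6.13, and in SakOE 4.28, 6.07 and 3.21. The 9 arrays of the unshifted groups span only 0.54 while those of SakOE span 2.86, from clearly present to under the filter level. The mean differences were -3.55 from w67 and -3.35 from OregonR in DSas-4, and -4.78 and -4.58 in SakOE. Leaving out 1 array at a time or rescaling moved the smaller difference between -3.80 and -2.71 in DSas-4 and between -5.35 and -3.92 in SakOE, the last range ending at -5.35 without SakOE replicate 2. With a fitted SD within groups of 0.73, CG6912 was more variable between replicates than 99.7% of the tested genes.

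The catalase gene Irc read 5.84, 5.98 and 6.21 in DSas-4 and 6.43, 6.70 and 5.86 in SakOE. It read 8.15, 8.23 and 7.64 in w67, 7.66, 7.77 and 7.40 in OregonR and 8.15, 7.92 and 7.93 in DSas-6. Its gap between the 6 arrays and the other 9, 0.70, was the smallest of the 7 genes, and the groups still did not overlap. The differences were -1.99 and -1.60 in DSas-4 and -1.67 and -1.28 in SakOE, from w67 and OregonR respectively.

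The non-coding RNA lncRNA:CR32027 stood lower in SakOE, at 6.13, 6.41 and 6.62, than in DSas-4, at 7.33, 7.09 and 7.24. The other groups read 8.72, 8.68 and 8.83 (w67), 8.46, 8.83 and 8.87 (OregonR) and 8.68, 8.94 and 8.91 (DSas-6). The differences from w67 and OregonR were -1.52 and -1.50 in DSas-4 and -2.36 and -2.34 in SakOE. This gene had the smallest difference between the wild types of all 7, 0.02.

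By the smaller of their differences from the wild types, ranked over the 6973 tested genes, Oat held place 7, CG14687 place 8 and miple1 place 11 in DSas-4, counted from the largest excess. In SakOE they held places 7, 3 and 21 in the same order of genes. Dred has no place, since its wild-type values were under the filter level. Counted from the largest deficit, CG6912 was at place 3, Irc at 8 and lncRNA:CR32027 at 10 in DSas-4, and at 2, 17 and 7 in SakOE. All 7 genes lay beyond the 6 wild-type arrays in DSas-4 (10.8% of tested genes) and in SakOE (23.5%). By limma, with called meaning an adjusted p under 0.05 against each wild type and 1 sign for both, the 4 higher genes were called in DSas-4 (1.76% of tested genes called higher) and SakOE (3.46%). The 3 lower genes were called in DSas-4 (1.53% called lower) and SakOE (7.24%). In DSas-6, 0 of the 7 were called higher (2.14%) and 2, miple1 and Dred, lower (4.02%), Dred from values under the filter level. These calls are fixed by the choice of the genes, and nothing is read from them. The 6 DSas-4 and SakOE arrays lay beyond the other 9 arrays for 105 tested genes, or 1.51%. These shares are context for a choice made on the same values.

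The SakOE arrays did not overlap those of DSas-4 for 3 of the 7 genes, as for 47.4% of all tested genes. These were lncRNA:CR32027, lower in SakOE by a difference of -0.83, miple1 (-0.52) and Dred (-0.22). The arrays overlapped for Oat (a difference of 0.05), CG14687 (0.76), CG6912 (-1.23) and Irc (0.32). In CG6912 the arrays of 1 strain spanned more (2.18 in DSas-4, 2.86 in SakOE) than the strains differed.

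The level of CG6912, chosen for being low in DSas-4 and SakOE, was set beside markers of oenocytes, the hydrocarbon-producing cells of the larval epidermis. Cyp4g1, their cytochrome P450, read 2.82, 6.05 and 3.69 in DSas-4 and 3.31, 3.77 and 4.16 in SakOE. It stood at 8.42 ± 0.35 in w67, 7.82 ± 0.78 in OregonR and 8.97 ± 0.04 in DSas-6. In DSas-4 the order of the 3 arrays was the same for CG6912 and Cyp4g1, and in SakOE the array with the most Cyp4g1 had the least CG6912. The whole list of oenocyte markers, of which 4 of 7 were measured, averaged 4.36 to 5.65 in DSas-4, 4.20 to 4.81 in SakOE, 6.28 to 6.89 in w67, 5.92 to 6.34 in OregonR and 6.84 to 7.11 in DSas-6. Cyp4g1 is itself 1 of the 4, so the average is not separate from it. Another of the 4, FASN2, was under 4 on all arrays. By the smaller difference from the wild types, svp stood at 0.05 in DSas-4 and -1.38 in SakOE, and FASN3 at -1.07 and -1.3. In limma, svp was called in SakOE and not in DSas-4, and FASN3 in neither. In bulk tissue, fewer cells of a type and less RNA per cell cannot be told apart, and the part of oenocytes in the CG6912 values was not tested. Fat body markers (5 of 8 measured), at 5.91 to 6.74 in DSas-4 and 5.94 to 6.34 in SakOE, overlapped those of w67 at 6.25 to 6.79.

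**Figure D2:**
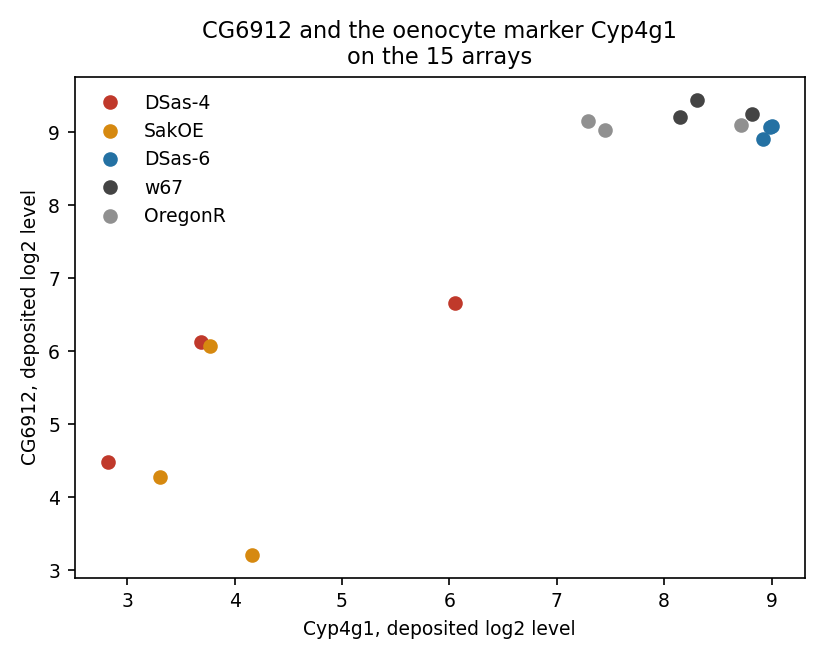
Each point is 1 array, with the deposited log2 level of Cyp4g1 on the horizontal axis and of CG6912 on the vertical axis, coloured by group. The 9 arrays of DSas-6 and the wild types sit together with CG6912 at 8.91 to 9.45, and the 6 of DSas-4 and SakOE are spread below, with CG6912 at 3.21 to 6.66.

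DSas-6, the other mutant without centrioles, had 2 of the 7 genes beyond all 6 wild-type arrays (background 17.1%), and both, miple1 and Dred, were on the lower side. For Dred the DSas-6 and wild-type arrays were all under the filter level, so their order is not a measured decrease. For Oat the DSas-6 mean of 5.58 ± 0.16 lay between w67 (5.84 ± 0.14) and OregonR (5.22 ± 0.57). CG14687 was at 7.84 ± 0.14 against 8.08 ± 0.18 and 7.84 ± 0.13, CG6912 at 9.03 ± 0.10 against 9.31 ± 0.13 and 9.10 ± 0.06. Irc, at 8.0 ± 0.13, matched w67 (8.0 ± 0.32) and exceeded OregonR (7.61 ± 0.19), and lncRNA:CR32027 was at 8.84 ± 0.14 against 8.74 ± 0.08 and 8.72 ± 0.23. The arrays of DSas-6 overlapped those of the wild types for these 5 genes.

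The difference between the wild types was not used to choose the genes and was tested with limma over all 6973 genes, of which 15.7% passed at an adjusted p of 0.05. Of the 7, 2 passed, both lower in w67. One was Dred, for which both strains lay under the filter level, so that no size is given and nothing is read from it. For miple1 the difference was -0.38 ± 0.10 (SE; adjusted p = 0.0255), and all 3 OregonR arrays were above all 3 of w67. The miple1 call was lost, at adjusted p of 0.0556 to 0.0887, when OregonR replicate 1, 2 or 3 or w67 replicate 2 or 3 was left out. Oat was higher in w67 by 0.62 ± 0.23 (SE; limma, adjusted p = 0.079), and passed only without OregonR replicate 1 (0.89, adjusted p = 0.0165). Irc (0.39, adjusted p = 0.197), CG14687 (0.25, adjusted p = 0.401), CG6912 (0.21, adjusted p = 0.835) and lncRNA:CR32027 (0.02, adjusted p = 0.921) did not pass. The genes were chosen with both wild types in view, so these differences are not a fair sample of genes.

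Over the 15 arrays the 4 higher genes correlated with each other at r of 0.89 to 0.98, and the 3 lower genes at 0.86 to 0.92. The genes were chosen by their levels in the 5 groups, so this likeness was built in. The 5 groups make most of that likeness, since after removal of the group means the correlation of Dred and miple1 was -0.19 and that of Oat and CG14687 0.40. CG6912 and Irc had the highest such value, 0.62, while lncRNA:CR32027, also a lower gene, had -0.52 with Irc and -0.31 with CG6912. The tested genes most like each of the 7, by Pearson's r over 15 arrays, were often the same few. For Oat they were CG14687 and CG6951 (r = 0.961 for both), for CG14687 they were CG6951 (0.969) and the clathrin light chain gene Clc (0.965). Those of miple1 were Dred (0.984) and CG34117 (0.948), and those of Dred were miple1 and Mic26-27, of the mitochondrial cristae complex (0.949). CG6912 was most like Cap-H2, a condensin II subunit, and the Mediator subunit gene MED7 (0.942 for both). Irc was most like MED7 (0.949) and TfIIFbeta, of general transcription factor TFIIF (0.938), and lncRNA:CR32027 was most like TfIIFbeta (0.963) and MED7 (0.955). TfIIFbeta stood at 10.30 ± 0.07 in DSas-4 and 10.20 ± 0.07 in SakOE against 11.35 ± 0.01 in w67, and MED7 at 9.64 ± 0.03 and 9.57 ± 0.06 against 10.73 ± 0.04. All of these like genes are annotated on chromosome 3, and several adjoin each other. MED7, Cap-H2 and TfIIFbeta hold places 450, 451 and 452 among the tested genes of arm 3R, close to CG14687 at place 456, and all were called lower in DSas-4 (by differences of -0.94, -0.97 and -1.04) and in SakOE (-1.01, -1.41 and -1.14). Clc and CG6951 hold places 1173 and 1174 of arm 3L and were called higher in both strains. Of all tested genes, 1.76% were called higher and 1.53% lower in DSas-4, and 3.46% and 7.24% in SakOE. The like genes were picked for their likeness to the 7 over the same arrays. Their calls in DSas-4 and SakOE follow from that pick, and nothing is read from them.

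The 7 genes themselves are also annotated on chromosome 3. By the RefSeq gene table of Release 6, Oat, miple1, Dred and lncRNA:CR32027 are on arm 3L and CG14687, CG6912 and Irc on arm 3R. Chromosome 3 holds 44.6% of the tested genes with a named arm, as well as Sas-4 and Sas-6 on 3R and SAK on 3L. Position was not part of the choice of genes. On 3L, 3 of them lie close together, with 15 tested genes between Dred and Oat and 33 between lncRNA:CR32027 and Dred. The stretch from lncRNA:CR32027 to Oat lies on the side of the arm where SAK is found, with 150 tested genes between Oat and SAK. Of the 48 other tested genes from lncRNA:CR32027 to Oat, Dred left aside, limma called 1 higher and 3 lower in DSas-4 (8.33%, against 3.30% of all tested genes and 5.84% of those on chromosome 3). In SakOE it called 7 higher and 8 lower (31.2%, against 10.7% and 14.8%), and in DSas-6 it called 0 (against 6.15% and 6.35%). The ends of this stretch were set after the positions of the 7 genes were seen, and no other stretch was counted. Adjoining calls in SakOE also occurred on 3L away from the 7 genes. CG17026, CG17029 and hzg, at places 911, 912 and 913, were all called lower there (-1.39, -0.84 and -1.24). At the other end of the arm, miple1 is the 24th of 1370 tested genes. On 3R, 260 tested genes separate Sas-4 from CG14687, 256 separate CG14687 from CG6912 and 132 separate CG6912 from Irc. Coordinates are not given, because the build behind the array is not named in the sources used here.

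The genes called against both wild types by limma were unevenly spread over the chromosomes in the strains where the 7 genes were shifted. In all, 3.30% of tested genes were called in DSas-4, 10.7% in SakOE and 6.15% in DSas-6; these comparisons share the wild-type arrays. The 7 genes are among those called in DSas-4 and SakOE by the way they were chosen. In DSas-4, 5.84% of the tested genes on chromosome 3 were called and 1.24% of those on X, 2 and 4. The shares were 14.8% and 7.41% in SakOE and 6.35% and 5.94% in DSas-6. Chromosome 4 alone, with only 56 tested genes, had 3 called in DSas-4 (5.36%), 3 in SakOE (5.36%) and 2 in DSas-6 (3.57%). Without the 7 genes, the share on chromosome 3 was 5.63% in DSas-4 and 14.6% in SakOE. Both arms took part, with 5.69% on 3L and 5.95% on 3R in DSas-4 and 15.7% and 14% in SakOE. The ratio of the share on chromosome 3 to that elsewhere was 4.69 in DSas-4, 1.99 in SakOE and 1.07 in DSas-6. It lay between 3.52 and 6.67 in DSas-4 and between 1.90 and 2.23 in SakOE when any 1 array was left out. These shares describe the strains as deposited and were not tested as a set.

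**Figure D3:**
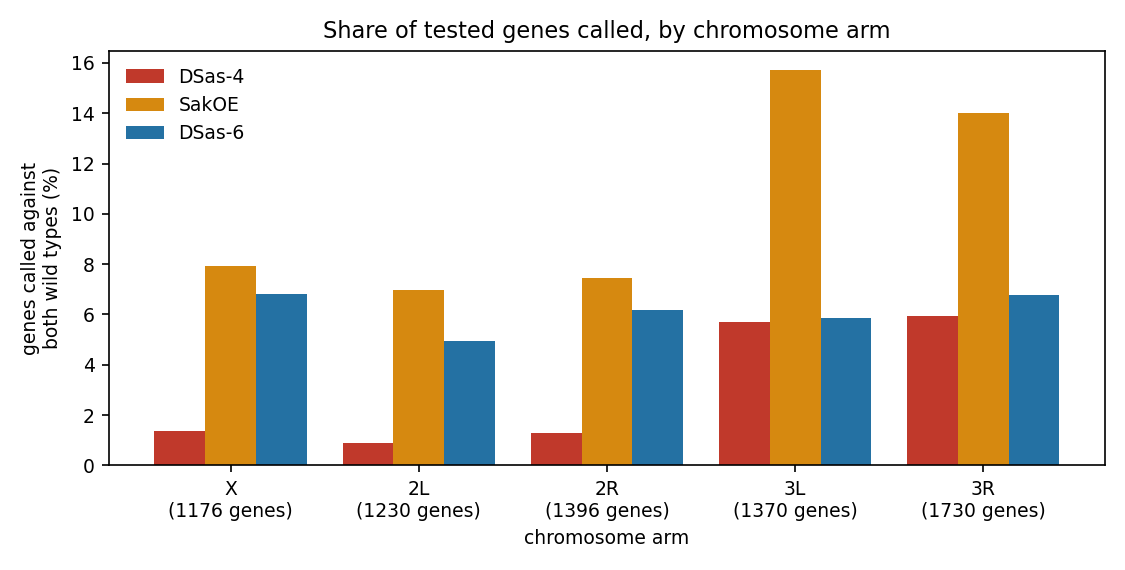
Bars give the percentage of tested genes on each large chromosome arm that were called against both wild types, for DSas-4, SakOE and DSas-6. DSas-4 and SakOE have their tallest bars on 3L and 3R, where the 7 genes lie (5.69% and 5.95%, 15.7% and 14%), and DSas-6 stays between 4.96% and 6.80% on all 5 arms.

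**Figure D4:**
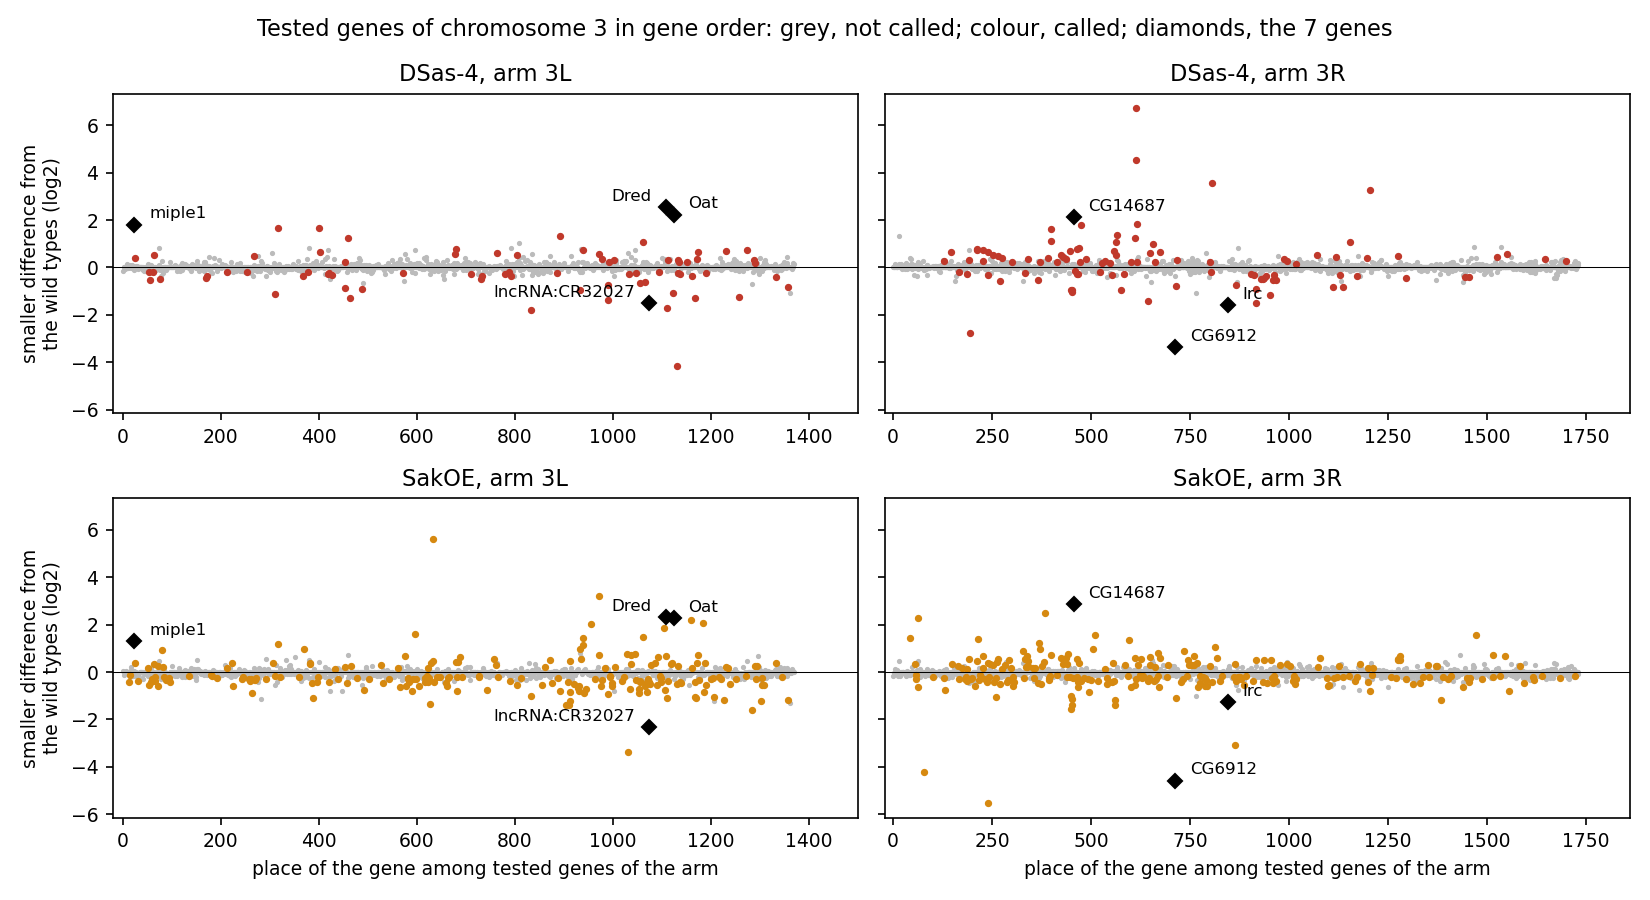
Each point is a tested gene of arm 3L or 3R, placed by its order among the tested genes of the arm (horizontal axis) and by the smaller of its differences from the wild types (log2, vertical axis, 0 where the differences have opposite signs), above for DSas-4 and below for SakOE. Coloured points were called and black diamonds are the 7 genes. Oat, at place 1125 of 3L, stands above 2 in both strains, and lncRNA:CR32027, at place 1075, stands below 0. Dred, at place 1109, is plotted against wild-type values under the filter level, so its height is not a measured size.

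Most of the 3 nearest tested genes on each side of the 7 were not called, although MED7, Cap-H2 and TfIIFbeta lie just outside that window around CG14687. Of these 42 genes, 5 were called in DSas-4 (11.9%) and 9 in SakOE (21.4%), against 3.30% and 10.7% of all tested genes, or 5.84% and 14.8% of those on chromosome 3. In DSas-6, 3 were called (7.14%). The DSas-4 count was 3 without DSas-4 replicate 3 or w67 replicate 1 and 2 without w67 replicate 2. The median difference of the neighbours was 0.00 from w67 and 0.02 from OregonR in DSas-4, and -0.11 and -0.06 in SakOE, close to -0.01, 0.08, -0.12 and -0.02 over all tested genes.

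The paralogue miple2 is the tested gene next to miple1 and stood at 12.37 ± 0.08 in DSas-4 and 12.24 ± 0.03 in SakOE against 12.56 ± 0.04 in w67 and 12.35 ± 0.04 in OregonR. It was not called in either strain (limma, adjusted p of up to 0.82 and 0.172). The phosphatidylinositol kinase gene fwd, named here after its values were seen, lies 2 tested genes from miple1. It rose by 0.38 in DSas-4 and by 0.40 in SakOE (limma, adjusted p of at most 0.0136 and 0.00261), the DSas-4 call being lost without w67 replicate 2. Near Dred and Oat, which were higher, some neighbours were lower. The potassium channel gene Shal, 3 tested genes from Dred, was under 4 on average in DSas-4 (3.37 ± 0.21) and SakOE (3.99 ± 0.13) against 5.09 ± 0.02 in w67 and 5.08 ± 0.95 in OregonR (limma, adjusted p of at most 0.00825 and 0.0352). The SakOE call of Shal was lost without any 1 of 7 arrays, namely each SakOE array, OregonR replicates 1 and 2 and w67 replicates 2 and 3, and its difference was -0.62 instead of -1.09 without OregonR replicate 2. It was also lost without a filter, after quantile normalization and after centring on tested genes. The kinase gene wnd, 2 from Oat, was 8.87 ± 0.04 in DSas-4, 9.86 ± 0.08 in SakOE and 10.10 ± 0.13 in w67, and was called in DSas-4 (adjusted p of at most 1.31e-07) and not in SakOE (0.288).

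The hairpin RNA genes next to Dred moved in opposite ways in SakOE, hpRNA:CR33940 up by 0.69 and hpRNA:CR32207 down, a difference of -0.77 (limma, adjusted p of at most 0.000682 and 0.00014). Neither was called in DSas-4. The muscle gene Mf, 2 tested genes from CG6912, was lower in both strains, by differences of -0.80 and -1.08 (limma, adjusted p of at most 0.0238 and 0.0011). The DSas-4 call of Mf was lost without any 1 of the DSas-4 or w67 arrays, without a filter, and with the mean of its probe sets, where the difference was -0.49. Dysb, 2 from lncRNA:CR32027, was lower in SakOE, with a difference of -0.49 (adjusted p of at most 0.0117), which was -0.30 without OregonR replicate 1, and the call was lost after quantile normalization. Indy and HipHop, 1 and 3 from lncRNA:CR32027, were named after their values were seen. They were also lower in SakOE, by differences of -0.40 and -0.30 (limma, adjusted p of at most 0.00862 and 0.0105), and kept these calls in every setting. None of Dysb, Indy and HipHop was called in DSas-4. The other neighbours of lncRNA:CR32027, namely CG14074, Grx1 and Cat, were called in neither strain. No neighbour of Irc was called in DSas-4 or SakOE.

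**Figure D5:**
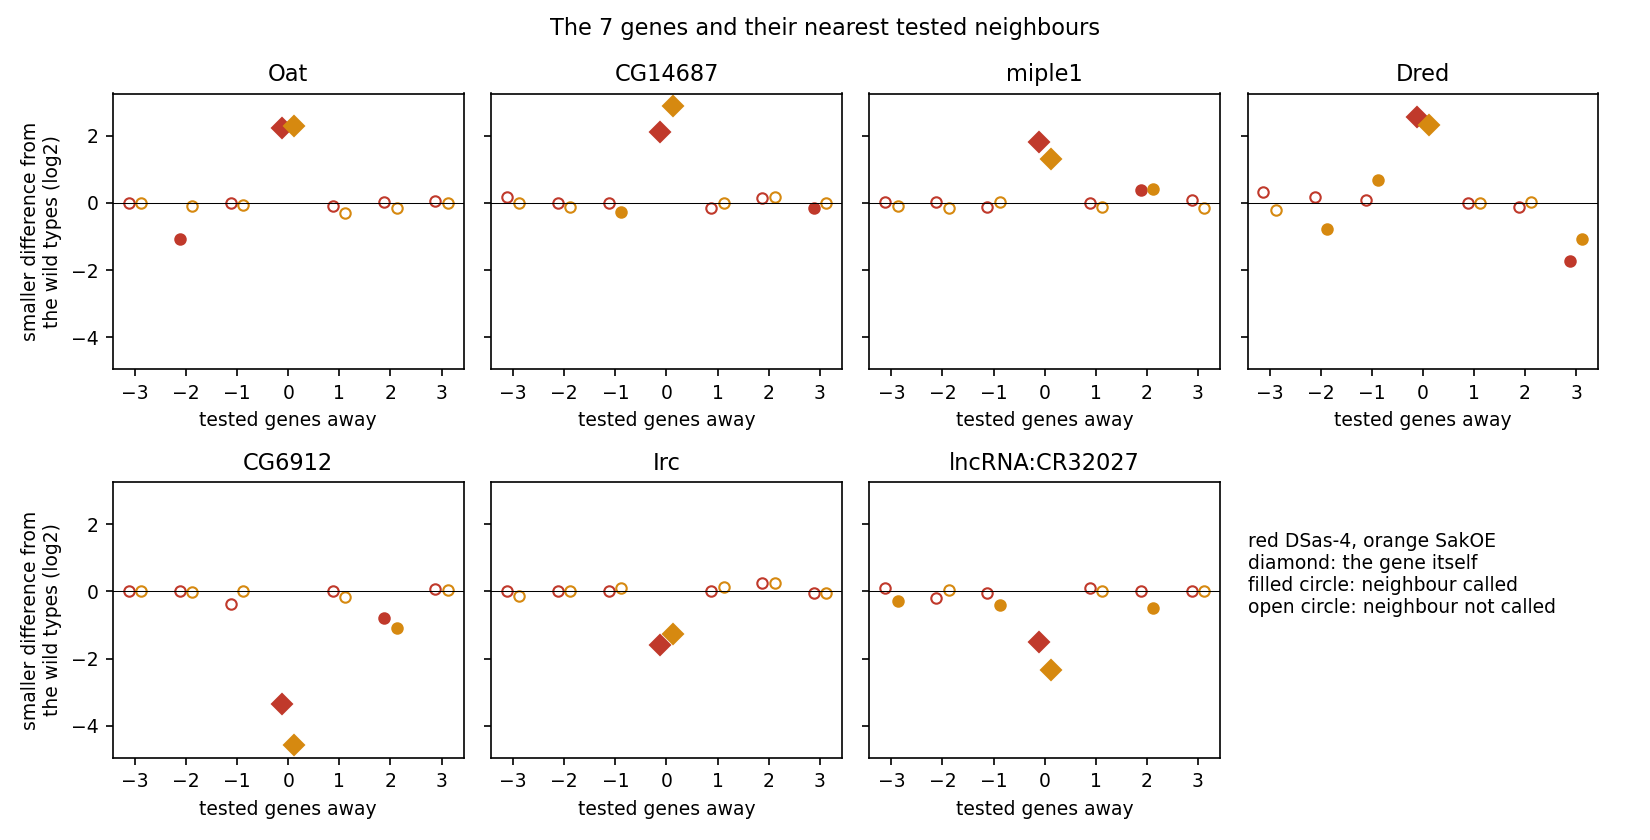
Each panel centres on 1 of the 7 genes (diamonds at 0) and shows its 3 nearest tested genes on each side (circles, filled where called), with the smaller difference from the wild types (log2) on the vertical axis, red for DSas-4 and orange for SakOE. Most circles lie near 0 beside diamonds at up to 2.88 and down to -4.58. Shal, 3 places from Dred, is at -1.72 and -1.09. The heights of the Dred diamonds are not measured sizes, since its wild-type values were under the filter level.

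Lists of genes were drawn up around Oat, miple1 and Irc. Whether the listed genes act with them in these larvae was not tested. Of 14 tested genes of ornithine, proline, polyamine and glutamate metabolism, 0 were called in DSas-4 (3.30% of all tested genes) and 1, or 7.14%, in SakOE (10.7% of all), where the GABA transaminase gene Gabat reached 5.88 ± 0.08 from 3.34 ± 0.03 in w67 and 3.67 ± 0.02 in OregonR, both under the filter level (limma, adjusted p of at most 1.33e-09). Gabat was at 3.32 ± 0.13 in DSas-4, so that Oat was high in both strains and Gabat in SakOE. Gabat passed the filter through SakOE alone, so its rise has no measured size and nothing is read from its call. The proline dehydrogenase gene slgA stood at 10.96 ± 0.04 in SakOE and 10.94 ± 0.03 in OregonR and was called in neither strain. The list's median difference was 0.06 from w67 and 0.19 from OregonR in DSas-4 and -0.06 and 0.00 in SakOE.

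Of 9 tested genes around midkine and Alk signalling, 1 was called in DSas-4 and 1 in SakOE, or 11.1% each (3.30% and 10.7% of all). The perlecan gene trol rose in DSas-4 (9.27 ± 0.48 against 8.42 ± 0.28 in w67 and 8.56 ± 0.22 in OregonR; limma, adjusted p of at most 0.0323). That call was lost without DSas-4 replicate 1 or 3, OregonR replicate 1 or 3 or any w67 array, and also without a filter, after quantile normalization and after centring on tested genes. With the mean of its probe sets the difference was 0.34 instead of 0.71. In DSas-6 trol stood at 9.11 ± 0.05 and was not called (limma, adjusted p of up to 0.0982). The haemocyte markers, several of which encode basement membrane proteins as trol does, were highest in DSas-4 replicate 1. They averaged 5.85 to 6.34 in DSas-6. Their part in the trol levels was not tested. The heart and visceral muscle factor Hand was lower in SakOE, at 4.05 ± 0.15 against 5.17 ± 0.15 and 5.29 ± 0.61 (limma, adjusted p of at most 0.0075). Its SakOE arrays, at 3.90 to 4.19, were around the filter level. Hand was also low in DSas-4, at 4.38 ± 0.22 (not called), and in DSas-6, at 4.37 ± 0.45 (called). The receptor gene Alk was at 8.88 ± 0.23 in DSas-4 and 8.65 ± 0.08 in SakOE against 9.03 ± 0.09 in w67 and 8.76 ± 0.22 in OregonR and was not called. The list's median difference was 0.03 and 0.12 in DSas-4 and -0.14 and -0.11 in SakOE.

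Of 13 tested genes for catalases, peroxidases, peroxiredoxins and thioredoxin, 0 were called in DSas-4 (3.30% of all tested genes) and 1, or 7.69%, in SakOE (10.7% of all). That was the mitochondrial peroxiredoxin gene Prx3, at 10.35 ± 0.08 against 10.61 ± 0.06 and 10.58 ± 0.03 (limma, adjusted p of at most 0.00458), a small decrease that was not called once arrays were centred on the median of tested genes. Cat, the main catalase, was at 10.80 ± 0.24 in DSas-4 and 11.19 ± 0.15 in SakOE against 11.16 ± 0.08 in OregonR, and was not called in the strains where Irc was low. The list's median difference was 0.01 and 0.04 in DSas-4 and -0.09 and -0.02 in SakOE. In DSas-6 only Hand was called among the genes of the 3 lists, and that call was lost when any 1 of 13 of the arrays was left out.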

How the data were processed

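The authors made the deposited log2 values with GCRMA, a method that gives 1 background-corrected summary per probe set, and also name limma, per the submitters' processing notes, without versions. The log2 scale was inferred from GCRMA and the range, 2.174 to 15.03. Of 18952 probe sets, 13647 had 1 gene symbol in the platform annotation, 402 several and 4903 none; 13544 of the first had an Entrez number in the RefSeq table of Release 6, which gave chromosome arms and gene order. Probe sets reaching 4 in at least 3 arrays were kept and the one with the highest mean stood for its gene, leaving 6973 genes. A mean per group was fitted to 15 arrays with limma 3.58.1 in R 4.3.3 (lmFit, eBayes), two-sided, with Benjamini-Hochberg adjustment per contrast and a threshold of 0.05. P-values measure the spread between samples labelled biological replicates, and the number of arrays limits precision. The fit was tested on simulated data. Scaling, filter, probe set choice, a replicate block and leaving out each array were varied.

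The members and lists were chosen with earlier results of these data known. Named genes are the 7, the genes of the centrosome labels, the 2 most alike per gene, Cyp4g1, up to 4 called genes per list and up to 6 called neighbours. After their values were seen, fwd, Indy, HipHop, CG17026, CG17029 and hzg were added. Replicate numbers did not pair the arrays (median r of same-numbered deviations -0.05 over 30 pairs).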

Additional observations from a re-analysis of the deposited data

Results flagged for a closer look

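For miple1 and Dred, every DSas-6 array lay below all 6 wild-type arrays while every DSas-4 and SakOE array lay above them. For miple1 the DSas-6 mean differed from the DSas-4 mean by -2.56, and the SakOE mean from the DSas-6 mean by 2.04. For Dred the values were -3.73 and 3.51, but DSas-6 and both wild types were under the filter level, so these are differences of deposited values near the floor and not measured sizes. These differences were not tested, because the genes were chosen on them.

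Some list genes and neighbours were named because they were called in DSas-4 or SakOE. Leaving aside fwd, Indy and HipHop, 6 of these differed between SakOE and DSas-4 in limma's direct contrast, which uses no wild-type array as control. Each was called against the wild types in DSas-4 or in SakOE but not in both, so a difference was largely built in. The arrays of these strains did not overlap for 47.4% of all tested genes. That is not the share called in the direct contrast, which was not counted over all tested genes, so nothing is read from the number of calls. Gabat was higher in SakOE by 2.56 (adjusted p = 1.87e-10), a value set against DSas-4 arrays under the filter level, which Gabat passed through SakOE alone. Also higher were wnd by 0.98 (adjusted p = 2.58e-07) and hpRNA:CR33940 by 0.60 (adjusted p = 0.0015), with all 3 SakOE arrays above all 3 of DSas-4. Lower in SakOE, with all 3 arrays below, were hpRNA:CR32207 (-1.18, adjusted p = 3.16e-06), Dysb (-0.57, adjusted p = 0.00346) and Prx3 (-0.40, adjusted p = 7.5e-05).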

How the results depend on the processing

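Without any filter the genes called in DSas-6 numbered 1168 (429 with it) and in SakOE 1374 (746), while those in DSas-4 numbered 188 (230). The listed pathway genes called in DSas-4 were 1 as reported, 0 without a filter or after quantile normalization, and 3 with the replicate number as a block (replicate block); in DSas-6 they were 1 as reported, 2 with the mean of all probe sets, 5 without a filter, and 0 after either centring, quantile normalization or the block; in SakOE they were 3 as reported and 5 without a filter. With the block, 204 genes were called in DSas-4, 395 in DSas-6 and 679 in SakOE, and of the named calls Hand in DSas-6 and Shal in SakOE were lost. Leaving out 1 array gave 159 to 239 called genes in DSas-4, 253 to 462 in DSas-6 (253 without its replicate 1, 275 without its replicate 2) and 520 to 780 in SakOE. It gave 0 to 1, 0 to 1 and 3 to 4 pathway genes, 2 to 5, 2 to 4 and 7 to 9 neighbours, and 1 to 2 of the 7 genes between the wild types. The causes were not tested, beyond the smaller number of arrays when 1 is left out. Centring on tested genes, the chromosome shares and the counts between lncRNA:CR32027 and Oat were added after seeing the data. SakOE lay 0.12 below w67 in the median of all tested genes. Levels under 4 and the spread of CG6912 limit what can be read from Dred and CG6912.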
